A study of Mus musculus with 3 samples.

Results

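The blood vessels, lymphatic vessels, pericytes and angiogenic ligands of a mouse mammary tumour were described through 42 genes, chosen as established markers or ligands and found by symbol among 47480 gene symbols. They comprised 20 genes of blood endothelium, 5 of activated or sprouting endothelium, 4 lymphatic genes, 5 pericyte genes, 6 ligand genes and the 2 neuropilins. RNA-seq was available for 3 tumours of the FVB-MMTV-Neu strain, in which the mouse mammary tumour virus promoter, active mainly in mammary epithelium, drives a Neu (Erbb2) oncogene. Per the labels' protocols the tumours were grown orthotopically in syngeneic hosts to a diameter of 5 mm and then for 7 days with no treatment, whereas the design text names only tumours of untreated MMTV-Neu mice. All were in 1 group with no control, they are numbered by order of deposition, and nothing says whether they came from separate donors, so the spread between them may be partly technical.

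Endothelial cells line vessels and respond to VEGF ligands through the receptor tyrosine kinases Kdr, Flt1 and Flt4. Angiopoietins act through Tek, with Angpt1 known to stabilise vessels and Angpt2 known as a product of remodelling endothelium. Pericytes wrap capillaries, and sprouting vessels are led by tip cells. In bulk tissue, fewer cells of a type and less RNA per cell cannot be told apart.

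Total estimated counts were 47449153, 11388769 and 17147394 in tumours 1, 2 and 3, and the 42 genes held 0.140, 0.267 and 0.164% of them. Levels are CPM, the usual depth-normalised counts, on library totals scaled by the TMM method, and 1 count was worth 0.0145, 0.124 and 0.0636 CPM. Per the file headers, lane 1 held tumour 1 and lane 5 held the others, within a single run, so lane and the difference of tumour 1 from the others cannot be told apart. Tumour 1 stood apart from the other libraries in several ways that touch vascular genes. The 8 skeletal muscle markers summed to 4.71 CPM in tumour 1, 49396 CPM in tumour 2 and 21514 CPM in tumour 3, and 5 red blood cell markers to 188, 3377 and 1855 CPM. Epithelial markers were closer, at 1683, 1610 and 2375 CPM over 7 genes.

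The promoters of 4 blood endothelial genes are shown because these genes had the widest spread (Egfl7 and Emcn) and the narrowest spread (Tek and Eng) between tumours among the 9 blood endothelial members with a RefSeq promoter window. The windows run from 250 bases before to 50 after the RefSeq start on build GRCm38.p6. The Egfl7 window lies wholly inside the annotated span of that gene (26580014 to 26593120), whereas those of Emcn, Tek and Eng begin before theirs. Capitals mark AGGAAG or its reverse complement CTTCCT, a core recognised by ETS transcription factors such as Erg and Fli1, which control endothelial genes.
Egfl7 (chr2:26580833-26581132, + strand): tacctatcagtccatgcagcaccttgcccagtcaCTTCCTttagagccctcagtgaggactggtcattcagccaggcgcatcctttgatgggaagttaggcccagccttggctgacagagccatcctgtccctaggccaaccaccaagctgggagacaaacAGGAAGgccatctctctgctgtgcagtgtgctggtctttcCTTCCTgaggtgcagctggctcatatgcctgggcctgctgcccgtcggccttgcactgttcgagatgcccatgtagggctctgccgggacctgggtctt
Emcn (chr3:137340828-137341127, + strand): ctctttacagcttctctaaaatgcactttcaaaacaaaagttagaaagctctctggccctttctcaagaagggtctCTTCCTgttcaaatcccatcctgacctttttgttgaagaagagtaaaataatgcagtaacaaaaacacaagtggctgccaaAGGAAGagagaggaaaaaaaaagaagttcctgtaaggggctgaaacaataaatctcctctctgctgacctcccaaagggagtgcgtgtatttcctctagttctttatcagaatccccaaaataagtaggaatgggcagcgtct
Tek (chr4:94739039-94739338, + strand): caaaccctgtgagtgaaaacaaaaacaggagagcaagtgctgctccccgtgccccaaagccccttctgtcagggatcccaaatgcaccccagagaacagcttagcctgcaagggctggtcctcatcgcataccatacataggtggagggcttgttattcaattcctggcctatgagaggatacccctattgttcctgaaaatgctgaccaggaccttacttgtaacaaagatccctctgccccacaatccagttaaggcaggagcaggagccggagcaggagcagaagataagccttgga
Eng (chr2:32646345-32646644, + strand): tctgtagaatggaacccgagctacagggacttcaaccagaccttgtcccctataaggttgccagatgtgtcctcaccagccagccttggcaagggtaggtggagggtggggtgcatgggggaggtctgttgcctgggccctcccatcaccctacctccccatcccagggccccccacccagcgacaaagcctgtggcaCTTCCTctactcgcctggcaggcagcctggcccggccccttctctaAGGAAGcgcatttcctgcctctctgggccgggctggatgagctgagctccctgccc
Egfl7 held 3 such matches, Emcn and Eng 2 each and Tek none. Of the blood endothelial members not shown, Flt1 and Tie1 held 2 each, Robo4 1, and Erg and Kdr none. Their log2 CPM ranges between tumours were 2.08, 1.70, 1.95, 1.49 and 1.10, the last nearly equal to that of Eng. A relation of the motif to spread was not tested. Of 27 members with a window, 10 held it (37%), against 35.1% of 27025 genes, and of the 9 blood endothelial members 6 did. A match is only a run of letters in this window.

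Most vascular transcripts were highest in tumour 2. Of the 40 members with a mean of at least 1 CPM, 32 (80%) had their highest log2 CPM in tumour 2, against 34.4% of all 14087 genes with that mean, while 6 (15%) were highest in tumour 1, against 48.3%, and 2 (5%) in tumour 3, against 17.3%. The lowest level was in tumour 1 for 26 (65%), against 40.8% of all genes, in tumour 2 for 6 (15%), against 40.6%, and in tumour 3 for 8 (20%), against 18.6%. The blood endothelial genes led this, with 19 of 20 highest in tumour 2, as did both neuropilins and 3 of 5 pericyte genes, whereas of the ligand genes 3 of 6 were highest in tumour 1, 2 in tumour 2 and 1 in tumour 3. Below, a gene lies above or below in a tumour when its log2 CPM, with a prior count of 2, differs by at least 1 (2-fold) from each of the others in that direction. By that rule 12 of 40 members (30%) lay above in tumour 2, against 6.37% of all genes, and 12 (30%) lay below in tumour 1, against 22.1% of all genes. In tumour 1, Vegfc alone among the members lay above (2.5%, against 25% of all genes), and in tumour 2 it alone lay below (2.5%, against 9.92%). Tumour 3 had no member above (1.19% of all genes) and Selp below (2.5%, against 2.44% of all genes). At 4-fold, 6 members (15%) lay below in tumour 1, against 10.5% of all genes, and none lay above in it (8.87% of all genes), above or below in tumour 2 (0.61% and 2.71%), or above or below in tumour 3 (0.177% and 0.653%).

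**Figure D1:**
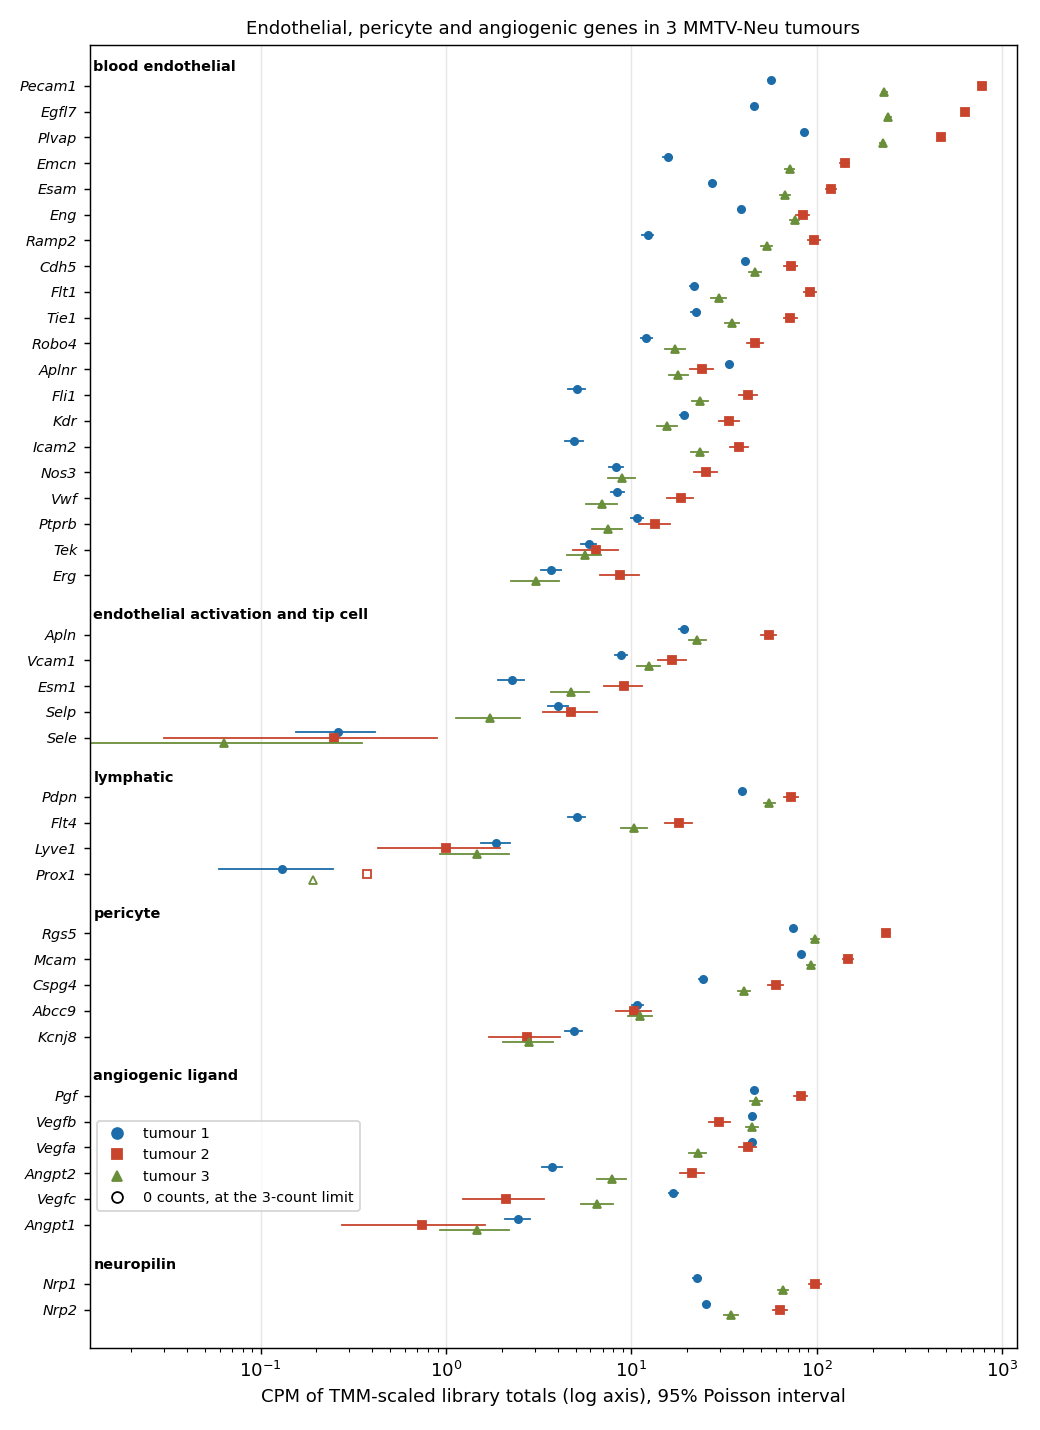
Level of each of the 42 genes in CPM (log axis) in tumours 1, 2 and 3, with the 95% Poisson interval as a line; an open symbol marks 0 counts, drawn at the limit of 3 counts. Tumour 2 (squares) is on the right for nearly all blood endothelial genes, whereas Vegfc, Angpt1, Kcnj8 and Aplnr are highest in tumour 1 (circles).

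Within the lane shared by tumours 2 and 3 the same order held. Of 40 members, 14 (35%) were at least 2-fold higher in tumour 2 than in tumour 3, against 9.32% of all genes, and 1 (2.5%), Vegfc, was at least 2-fold lower, against 11.8% of all genes. Library scaling changed these counts. With library totals alone, which put the log2 difference of the median gene at 1.01 in tumour 1 and −0.81 in tumour 2 (0.17 and −0.11 with TMM), 22 of 40 members (55%) were highest in tumour 2, against 17.1% of all genes, and 3 rather than 12 lay at least 2-fold above (7.5%, against 1.99%). In tumour 1, 5 members rather than Vegfc alone then lay above (12.5%, against 43.2% of all genes).

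The groups differed in level when compared per transcript length, as the median log2 CPM per kilobase of the longest annotated transcript. Blood endothelial genes were at 2.06, 3.92 and 2.94 in tumours 1, 2 and 3 (mean 2.97 ± 0.93, SD, n = 3). Pericyte genes were at 1.59, 2.89 and 2.32 (mean 2.26 ± 0.65) and ligand genes at 3.24, 3.10 and 2.08 (mean 2.81 ± 0.63). Lymphatic genes were lowest, at −0.44, 0.04 and −0.09 (mean −0.16 ± 0.25), and activation and tip cell genes were at 0.25, 2.02 and 1.18 (mean 1.15 ± 0.89). The median of all genes was 2.50, 2.11 and 2.22.

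Set against blood endothelium within each tumour, pericyte and lymphatic genes were lower in each tumour and ligand genes were not. The pericyte minus blood endothelial difference of these log2 levels was −0.47, −1.03 and −0.62 (mean −0.71 ± 0.29, SD, n = 3), lower in 3 of 3 tumours. Without division by length it turned to 0.39, and the pericyte genes Cspg4 and Abcc9 have long transcripts, of 8121 and 7499 bases. The lymphatic minus blood endothelial difference was −2.50, −3.88 and −3.03 (mean −3.13 ± 0.70), also lower in 3 of 3. The ligand minus blood endothelial difference was 1.18 in tumour 1 but −0.81 in tumour 2 and −0.86 in tumour 3 (mean −0.16 ± 1.17), so its mean is well within the spread between tumours. These differences depend on which genes represent a group and do not measure numbers of cells.

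**Figure D2:**
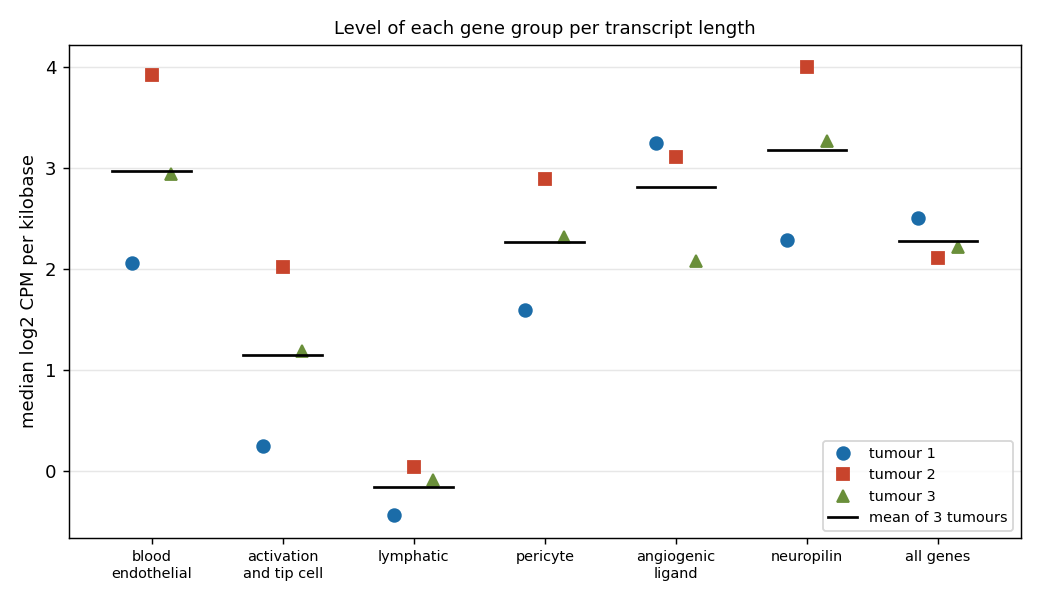
Median log2 CPM per kilobase of each gene group in each tumour, with the mean of 3 tumours as a bar; the last column holds all 14087 genes with a mean of at least 1 CPM. Lymphatic genes are lowest, and the ligand group is the only vascular group with its highest value, 3.24, in tumour 1.

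Among blood endothelial genes, the adhesion molecule and junction genes separated into steep and even patterns. Pecam1, the platelet and endothelial adhesion molecule of cell contacts (chromosome 11, 106654217 to 106750628), reached 775 CPM in tumour 2, against 56.4 CPM in tumour 1 and 231 CPM in tumour 3. Cdh5, the VE-cadherin of adherens junctions, reached 72.5 CPM in tumour 2, against 41.2 and 46.3 CPM. The Pecam1 level in tumour 2 was 13.7-fold that in tumour 1, and the Cdh5 level 1.76-fold. Because both genes come from the same library, their ratio does not depend on scaling: there were 10.7 Pecam1 counts per Cdh5 count in tumour 2 (95% counting interval 9.82 to 11.7), 4.99 in tumour 3 (4.61 to 5.41) and 1.37 in tumour 1 (1.31 to 1.44). The 3 intervals did not overlap.

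Egfl7, a secreted endothelial factor (chromosome 2, 26580014 to 26593120), had the same steep pattern. It reached 627 CPM in tumour 2, against 45.6 CPM in tumour 1 and 242 CPM in tumour 3. It also had the highest mean level per kilobase of all members, 163 CPM per kilobase, with an SD of 158. The fenestration protein gene Plvap followed at 130 ± 96.6 CPM per kilobase and Pecam1 at 103 ± 109 (SD, n = 3), so the order of these neighbours lies within their spread.

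Emcn, which encodes the sialomucin endomucin of capillaries and veins (chromosome 3, 137341067 to 137432185), stood at 15.7 CPM in tumour 1, against 141 and 71.2 CPM in tumours 2 and 3. Fli1, an ETS factor of endothelium that is also active in blood cells, measured 5.09 CPM in tumour 1, against 42.6 and 23.5 CPM. Ramp2, the adrenomedullin receptor partner, was at 12.2 against 96.4 and 53.6 CPM, and Icam2, an adhesion molecule of endothelium and platelets, at 4.90 against 38.0 and 23.3 CPM. With Pecam1 and Egfl7 these are the 6 members at least 4-fold lower in tumour 1 than in both others, and they still lay at least 2-fold lower with library totals alone.

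The tight junction adhesion gene Esam stood at 27.4 CPM in tumour 1, against 119 and 67.2 CPM in tumours 2 and 3, and Plvap at 85.6 against 465 and 226 CPM. Eng, the TGF-beta co-receptor endoglin, was at 38.9 against 83.8 and 76.0 CPM. For all of these genes tumour 1 was lowest and tumour 2 highest.

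The receptors were less uniform. Flt1, the decoy-like VEGF receptor, reached 92.2 CPM in tumour 2, against 21.7 and 29.5 CPM in tumours 1 and 3. Kdr, the main signalling VEGF receptor of blood endothelium, reached 33.6 CPM in tumour 2, against 19.2 and 15.6 CPM, lowest in tumour 3. There were 2.75 Flt1 counts per Kdr count in tumour 2 (2.39 to 3.17), 1.13 in tumour 1 (1.05 to 1.22) and 1.89 in tumour 3 (1.62 to 2.22). Kdr per Cdh5 was 0.463 in tumour 2 and 0.466 in tumour 1, with overlapping intervals of 0.399 to 0.536 and 0.437 to 0.498, and 0.336 in tumour 3 (0.290 to 0.389).

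Of the angiopoietin receptor pair, Tie1, the orphan partner, reached 72.1 CPM in tumour 2, against 22.2 and 35.0 CPM in tumours 1 and 3. Tek, the receptor itself (chromosome 4, 94739289 to 94874976), was at 5.87, 6.46 and 5.59 CPM in tumours 1, 2 and 3. Its 95% Poisson intervals of 5.31 to 6.47, 4.83 to 8.48 and 4.49 to 6.89 overlapped, and a chi-square test of its counts against the scaled library totals gave a Benjamini-Hochberg adjusted p of 0.71. That test compares these libraries and not conditions, and it called 37 of 40 members (92.5%), against 94.9% of all genes. The members it did not call were Tek, Abcc9 and Lyve1. The evenness of Tek depended on the trend on GC content and length. Its log2 differences from the mean of the other tumours were −0.03, 0.17 and −0.14, and −0.72, 0.61 and 0.11 with that trend removed.

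Robo4, a guidance receptor of vessel stability, reached 46.5 CPM in tumour 2, against 12.0 and 17.2 CPM in tumours 1 and 3. Nos3, the endothelial nitric oxide synthase, was at 25.1 against 8.25 and 8.90 CPM, Vwf, the platelet-binding von Willebrand factor, at 18.4 against 8.40 and 6.93 CPM, and the ETS factor gene Erg at 8.70 against 3.70 and 3.05 CPM. Here tumours 1 and 3 were close and tumour 2 alone was high. Ptprb, the phosphatase that dampens Tek, was at 10.7, 13.4 and 7.44 CPM in tumours 1, 2 and 3. Aplnr, the apelin receptor, was the blood endothelial gene highest in tumour 1, at 33.8 CPM against 24.0 and 17.9 CPM. Over all 20 genes the level in tumour 2 was 0.710 to 13.7 times that in tumour 1, with a median of 3.56, and 1.10 to 3.35 times that in tumour 3, with a median of 2.02.

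**Figure D3:**
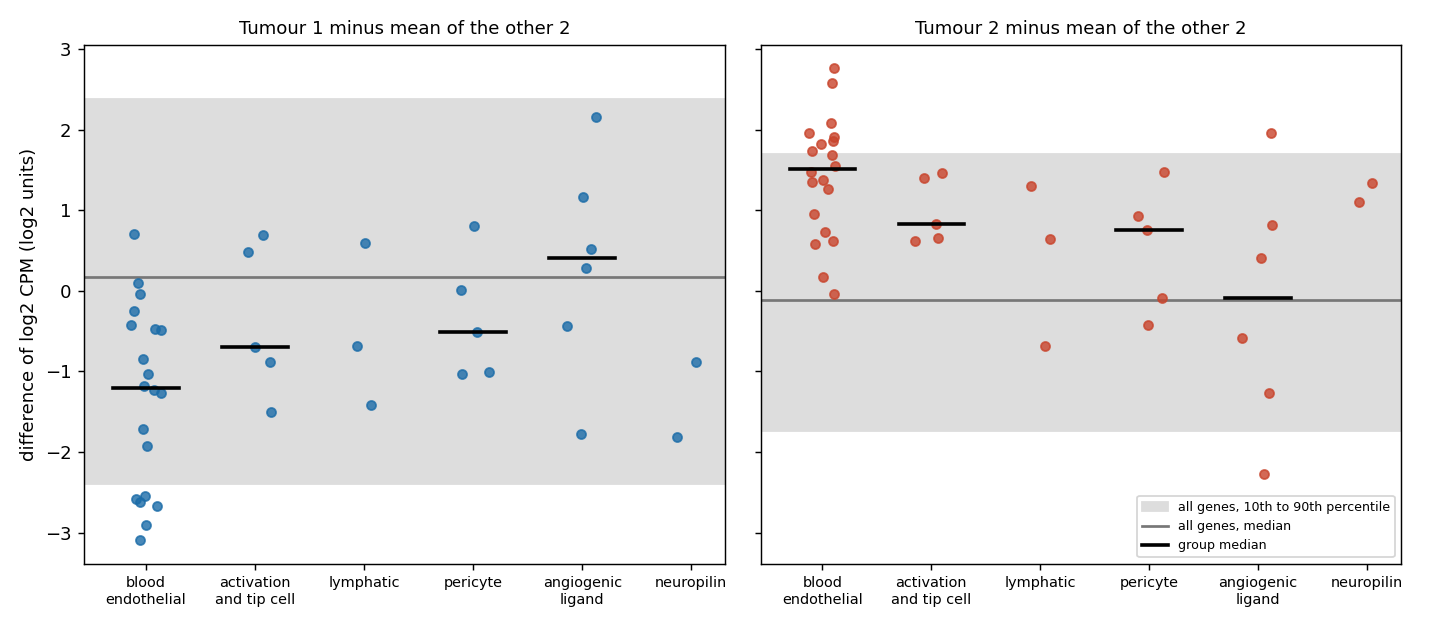
Difference of log2 CPM of tumour 1 (left) and tumour 2 (right) from the mean of the other 2 tumours, a point per member, with medians as bars for groups of at least 5 genes; the grey band holds the middle 80% of all genes and Prox1, at 0 counts in 2 tumours, is left out. Blood endothelial genes lie mostly below 0 in tumour 1 and above 0 in tumour 2, while ligand genes scatter on both sides.

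As a median over members, blood endothelial genes had log2 differences from the mean of the other tumours of −1.21, 1.51 and −0.17 in tumours 1, 2 and 3, against 0.17, −0.11 and 0.02 over all genes. In tumour 1, 18 of 20 had a level under the mean log2 CPM of the others. Of these, 14 were lowest there (40.8% of all genes) and 8 at least 2-fold below both (22.1%). In tumour 2, 19 of 20 exceeded the mean of the others, and 9 were at least 2-fold above both (6.37% of all genes). The tumour 1 value rested partly on tumour 2: compared with tumour 3 alone it was −0.62, and compared with tumour 2 alone −1.82. Transcript length moved with it. Across the 20 genes, which are not independent replicates and share libraries, the difference of tumour 1 rose with length (Spearman rho 0.63, compared with 0.20 over 13665 genes), and its relation to GC content was weak (rho −0.11, compared with −0.29). With the trend on GC content and length removed, the median over the 20 genes was −0.84 in tumour 1 and 1.21 in tumour 2. In tumour 1, Emcn was then at −3.42, against −2.67 before, Pecam1 at −3.21, against −2.91, and Fli1 at −3.32, against −2.62. Egfl7 was at −2.29, against −3.09, Icam2 at −1.88, against −2.59, Ramp2 at −1.63, against −2.55, and Plvap at −0.86, against −1.92. All 20 genes then exceeded the mean of the other tumours in tumour 2, although Aplnr was still higher in tumour 1 and Eng was higher in tumour 3.

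Of the activation and tip cell genes, 4 of 5 reached a mean of 1 CPM, and all of those were highest in tumour 2 (34.4% of all genes). Apln, the apelin ligand of sprouting tips, reached 55.1 CPM in tumour 2, against 19.1 and 22.6 CPM in tumours 1 and 3. There were 2.30 Apln counts per count of its receptor Aplnr in tumour 2 (1.93 to 2.73), 0.567 in tumour 1 (0.529 to 0.606) and 1.26 in tumour 3 (1.08 to 1.48). Esm1, a proteoglycan of tip cells, reached 9.07 CPM in tumour 2, against 2.26 and 4.70 CPM. The leukocyte adhesion gene Vcam1, which fibroblasts also express, was at 16.5 against 8.79 and 12.5 CPM.

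The selectins, which tether leukocytes to inflamed endothelium, were low. Selp, which platelets also carry, measured 1.72 CPM in tumour 3, against 4.02 and 4.72 CPM in tumours 1 and 2, and was the only member with a mean of at least 1 CPM to be at least 2-fold lower in tumour 3 than in both others. Sele had 18, 2 and 1 counts in tumours 1, 2 and 3, or 0.260, 0.249 and 0.0636 CPM with overlapping intervals, so no difference was detectable at this depth.

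Lymphatic genes were few and uneven. Prox1, the transcription factor that defines lymphatic endothelium, had 9 counts in tumour 1 (0.130 CPM) and 0 in tumours 2 and 3, which allows up to 0.373 and 0.191 CPM, both above the tumour 1 level. Lyve1, the hyaluronan receptor of lymphatic endothelium and of some macrophages, had 128, 8 and 23 counts, or 1.85, 0.994 and 1.46 CPM, with overlapping intervals of 1.54 to 2.20, 0.429 to 1.96 and 0.927 to 2.19 and an adjusted chi-square p of 0.16. Prox1 was thus at or near the limit of detection in each tumour, and Lyve1 rested on 8 counts in tumour 2.

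The remaining lymphatic genes are also active elsewhere. Pdpn, a mucin-like protein of lymphatic vessels that fibroblasts and basal epithelium share, stood at 39.3, 72.6 and 55.4 CPM in tumours 1, 2 and 3, equal to 30.7 ± 9.16 CPM per kilobase (SD, n = 3), against 0.496 ± 0.148 for Lyve1. Flt4, the receptor of VEGF-C, stood at 5.07 CPM in tumour 1, against 18 and 10.4 CPM in tumours 2 and 3, in the order of the blood endothelial genes rather than that of Lyve1. There were 0.365 Lyve1 counts per Flt4 count in tumour 1 (0.295 to 0.448), 0.0552 in tumour 2 (0.0234 to 0.112) and 0.141 in tumour 3 (0.0870 to 0.219).

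Beyond the members, 4 of 7 other lymphatic genes reached a mean of 1 CPM, and they went both ways. The integrin gene Itga9 measured 55.4 CPM in tumour 1, against 23.4 and 26.6 CPM in tumours 2 and 3. The chemokine gene Ccl21a was at 1.98 against 19.3 and 13.0 CPM, and the venous and lymphatic factor gene Nr2f2 at 14.6 against 20.6 and 17.9 CPM. Reln, a secreted glycoprotein gene, was at 9.15 CPM in tumour 1, with 0 counts in tumour 2 and 9 in tumour 3. By the 2-fold rule 2 of 4 lay above (25% of all genes) and 1 below (22.1%) in tumour 1.

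Pericyte genes also split, with median log2 differences from the mean of the other tumours of −0.51, 0.75 and −0.25 in tumours 1, 2 and 3. With the trend on GC content and length removed, the value of tumour 2 was 0.31. Rgs5, a G protein regulator and standard pericyte marker (chromosome 1, 169655501 to 169695813), reached 237 CPM in tumour 2, against 74.1 and 97.8 CPM in tumours 1 and 3. The proteoglycan gene Cspg4 (NG2) was at 60.0 against 24.4 and 40.4 CPM, and the adhesion molecule gene Mcam, which endothelium shares, at 148 against 82.3 and 92.8 CPM. All of these were highest in tumour 2 and lowest in tumour 1.

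Kcnj8 and Abcc9, which encode the pore and the regulatory subunit of the pericyte and smooth muscle ATP-sensitive potassium channel, did not share that order. They are neighbours on chromosome 6 (142564837 to 142571614 and 142587862 to 142702315). Abcc9 was at 10.8, 10.3 and 11.1 CPM in tumours 1, 2 and 3, with overlapping intervals of 10.01 to 11.6, 8.22 to 12.8 and 9.54 to 12.9 and an adjusted chi-square p of 0.85. Kcnj8 was at 4.89 CPM in tumour 1 (4.38 to 5.44), against 2.73 (1.71 to 4.14) and 2.80 CPM (2.03 to 3.75) in tumours 2 and 3. The evenness of Abcc9 depended on the trend on GC content and length. With it removed, the log2 differences of Abcc9 from the mean of the other tumours were −0.71, 0.31 and 0.40. Abcc9 was then lowest in tumour 1, as were Rgs5, Cspg4 and Mcam, whereas Kcnj8 was still highest there, at 1.02.

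Ratios within libraries show the same split. Kcnj8 per Rgs5 was 0.0659 in tumour 1 (0.0589 to 0.0736), against 0.0115 in tumour 2 (0.00722 to 0.0175) and 0.0286 in tumour 3 (0.0207 to 0.0386). By contrast Mcam per Cdh5 was 2.00, 2.04 and 2.00 in tumours 1, 2 and 3, with overlapping intervals of 1.91 to 2.09, 1.84 to 2.25 and 1.83 to 2.19, the steadiest of the 21 ratios computed. Rgs5 per Cdh5 was 3.27 in tumour 2 (2.98 to 3.59), against 1.80 in tumour 1 (1.72 to 1.88) and 2.11 in tumour 3 (1.93 to 2.31).

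**Figure D4:**
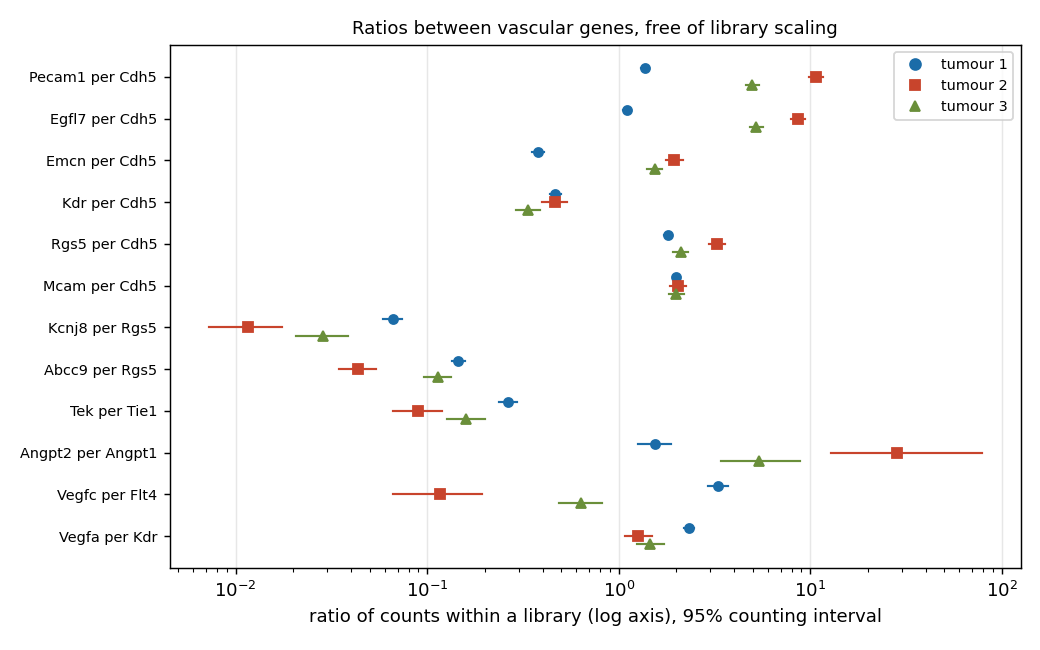
Ratio of the counts of paired genes within each library (log axis), with 95% counting intervals, for tumours 1, 2 and 3. Mcam per Cdh5 hardly moves, from 2.00 to 2.04, whereas Pecam1 per Cdh5 spans 1.37 to 10.7 and Vegfc per Flt4 spans 0.117 to 3.31.

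Other mural cell genes were mixed as well. Of 12, 9 were highest in tumour 2 (34.4% of all genes) and 3 in tumour 1 (48.3%). In tumour 2, 3 lay at least 2-fold above (6.37%), and in tumour 1, 5 lay at least 2-fold below (22.1%) and 1 above (25%), Gucy1b3, chosen after its values were seen, at 7.23 CPM against 0.497 and 0.572 CPM. Pdgfrb and Heyl, also chosen after their values were seen, were the others highest in tumour 1. Pdgfrb was nearly equal in tumours 1 and 2, at 82.7 and 82.4 CPM, and at 57.5 CPM in tumour 3. Heyl was at 15.8, 6.84 and 9.28 CPM in tumours 1, 2 and 3. The receptor gene Notch3 reached 136 CPM in tumour 2, against 64.9 and 68.8 CPM in tumours 1 and 3, and Ndufa4l2, a mitochondrial gene enriched in pericytes, at 168 against 6.19 and 68.3 CPM. Des, an intermediate filament of pericytes and of all muscle, was at 3185 against 11.2 and 1701 CPM. Skeletal muscle markers moved with Des, since Ckm had 263510 counts in tumour 2 against 33 in tumour 1 and 182608 in tumour 3, and their part in the vascular results was not tested.

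The ligand genes followed no common order. Vegfa, the principal angiogenic ligand (chromosome 17, 46016993 to 46032369), was at 44.7 and 42.5 CPM in tumours 1 and 2 and at 22.8 CPM in tumour 3. There were 2.33 Vegfa counts per Kdr count in tumour 1 (2.18 to 2.48), 1.27 in tumour 2 (1.08 to 1.49) and 1.47 in tumour 3 (1.24 to 1.73). Vegfb, linked in mice to endothelial lipid uptake, reached 29.8 CPM in tumour 2, against 44.5 and 44.9 CPM in tumours 1 and 3, and Pgf, the placental growth factor that binds Flt1, at 81.8 against 45.6 and 47.0 CPM. Per kilobase, Vegfb (31.0 ± 6.69) and Pgf (28.0 ± 9.84) lay above Vegfa (10.6 ± 3.49; CPM per kilobase, SD, n = 3) in each tumour.

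Vegfc, the lymphangiogenic ligand of Flt4 (chromosome 8, 54077606 to 54187096), ran opposite to the endothelial genes. It was at 16.8 CPM in tumour 1 (15.8 to 17.8), against 2.11 CPM in tumour 2 (1.23 to 3.38) and 6.55 CPM in tumour 3 (5.34 to 7.94), on 1162, 17 and 103 counts. The 3 intervals did not overlap, and the level in tumour 1 was 7.95-fold that in tumour 2 and 2.57-fold that in tumour 3. With Flt4 lowest in tumour 1, Vegfc per Flt4 was 3.31 in tumour 1 (2.94 to 3.74), against 0.117 in tumour 2 (0.0665 to 0.194) and 0.632 in tumour 3 (0.489 to 0.814).

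The angiopoietins went in opposite directions. Angpt2 reached 21.3 CPM in tumour 2, against 3.74 and 7.88 CPM in tumours 1 and 3. Angpt1 stood at 0.746 CPM in tumour 2 (0.274 to 1.62), on 6 counts, against 2.43 (2.08 to 2.82) and 1.46 CPM (0.927 to 2.19) in tumours 1 and 3. There were 28.5 Angpt2 counts per Angpt1 count in tumour 2 (12.8 to 78.7), 1.54 in tumour 1 (1.26 to 1.88) and 5.39 in tumour 3 (3.44 to 8.82), and these intervals did not overlap. Angpt2 lies inside the span of Mcph1, which is on the opposite strand and had 1119, 73 and 143 counts. Only whole gene spans were compared and no strand setting is stated. Whether this pair shares exon sequence, and so whether its reads can be confused, was not tested. The span of Egfl7 is overlapped on the opposite strand by Agpat2 (2246, 79 and 265 counts), and shared exon sequence was not tested for this pair. The span of Ramp2 is overlapped on the same strand by Vps25, which had 6373, 2820 and 3516 counts, against 847, 776 and 843 for Ramp2. Shared exon sequence was not tested here either, so the level of Ramp2 is uncertain. In all, 6 of 42 members overlap a gene with at least 100 counts in a library. The others are Eng, Plvap and Nos3, each overlapped on the opposite strand. Eng is overlapped by Fpgs (2371, 1383 and 2180 counts), Plvap by Gtpbp3 (1529, 99 and 224) and Nos3 by Atg9b (509, 10 and 62). Shared exon sequence was not tested for them.

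As a median, ligand genes had log2 differences from the mean of the other tumours of 0.40, −0.09 and −0.04 in tumours 1, 2 and 3. These were smaller than the SD of the group's level (0.63), which comes from the same tumours and is no separate measure of error. With library totals alone the differences were 1.25 in tumour 1 and −0.79 in tumour 2. The neuropilins, co-receptors of VEGF and semaphorin, followed the endothelial order. Nrp1 reached 97.7 CPM in tumour 2, against 22.7 and 65.5 CPM in tumours 1 and 3, and Nrp2 at 63.6 against 25.4 and 34.3 CPM.

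Other angiogenic factors and inhibitors had no common order either. Of 18, 15 reached a mean of 1 CPM. Of these, 8 were highest in tumour 1 (48.3% of all genes), 6 in tumour 2 (34.4%) and 1 in tumour 3 (17.3%). Pdgfb, the endothelial ligand that recruits pericytes, reached 337 CPM in tumour 2, against 98.3 and 185 CPM in tumours 1 and 3, and the semaphorin gene Sema3f, a neuropilin ligand, at 676 against 45.8 and 279 CPM. Col18a1, the collagen that yields endostatin, was at 269 against 488 and 389 CPM. Of 12 hypoxia response genes, 9 were highest in tumour 1, against 48.3% of all genes, and 4 lay at least 2-fold above there, against 25%. The lactate dehydrogenase gene Ldha measured 463 CPM in tumour 1, against 109 and 191 CPM in tumours 2 and 3, and the oxygen sensor gene Egln3 at 93.1 against 9.07 and 10.9 CPM. The glycolysis gene Pgk1, at 241 against 139 and 178 CPM, and the factor gene Hif1a, at 65.1 against 48.1 and 36.9 CPM, differed by under 2-fold. Vegfa, also a hypoxia target, was within 1.05-fold between tumours 1 and 2 with TMM. With library totals alone it lay at least 2-fold above both others in tumour 1.

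Most endothelial genes outside the members were also highest in tumour 2. Of 29 with a mean of at least 1 CPM among 30, 23 were highest in tumour 2, against 34.4% of all genes, and 6 in tumour 1, against 48.3%. In tumour 2, 10 lay at least 2-fold above (6.37% of all genes) and none below. In tumour 1, 7 lay below (22.1%) and 2 above (25%). Their median level of 2.10, 2.46 and 1.72 log2 CPM per kilobase in tumours 1, 2 and 3 was lowest in tumour 3, unlike that of the blood endothelial members. The flow-responsive factor gene Klf2 reached 523 CPM in tumour 2, against 15.3 and 187 CPM in tumours 1 and 3, and Cd34, a sialomucin of endothelium and progenitors, at 410 against 47.8 and 192 CPM. The ephrin receptor gene Ephb4 was at 201 against 126 and 158 CPM.

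Summed markers of several other cell types moved with the vascular genes, and others did not. Summed macrophage markers were at 4305 CPM in tumour 2, against 650 and 2693 CPM in tumours 1 and 3. Leukocyte markers were at 1433 against 178 and 892 CPM. In tumour 1, 5 of 10 macrophage and 4 of 6 leukocyte markers lay at least 2-fold below, against 22.1% of all genes. The highest level was in tumour 2 for 5 of 10 and 4 of 6 (34.4% of all genes). It was in tumour 1 for 3 of 10 and 1 of 6 (48.3%). Platelet markers were at 133 against 12.3 and 85.3 CPM, with Gp9 and Ppbp, chosen after their values were seen, at 0 counts in tumours 2 and 3. Fibroblast markers were at 6670 against 4072 and 3710 CPM, with 1 of 10 at least 2-fold above in tumour 2 (6.37% of all genes). In tumour 2 the macrophage and leukocyte sums rested largely on single genes, and genes within a list could differ. C1qa reached 2426 CPM in tumour 2, against 161 and 1369 CPM, and Coro1a 867 CPM, against 33.5 and 460 CPM. C1qb, chosen after its values were seen, was at 185 against 117 and 193 CPM. Also chosen so, and highest in tumour 1, were Adgre1 (13.8, 11.6 and 11.9 CPM in tumours 1, 2 and 3), Cd68 (24.5, 18.3 and 22.8), Mertk (2.62, 1.86 and 1.84) and Cd53 (18.5, 6.96 and 15.2). Smooth muscle and myoepithelial markers summed to 908 against 572 and 557 CPM, but 5 of 8 were highest in tumour 1 (48.3% of all genes). Adipocyte markers were at 178 CPM in tumour 2, against 233 and 130 CPM, with 5 of 7 highest in tumour 1 (48.3% of all genes). The part of these cell types in the vascular results was not tested.

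**Figure D5:**
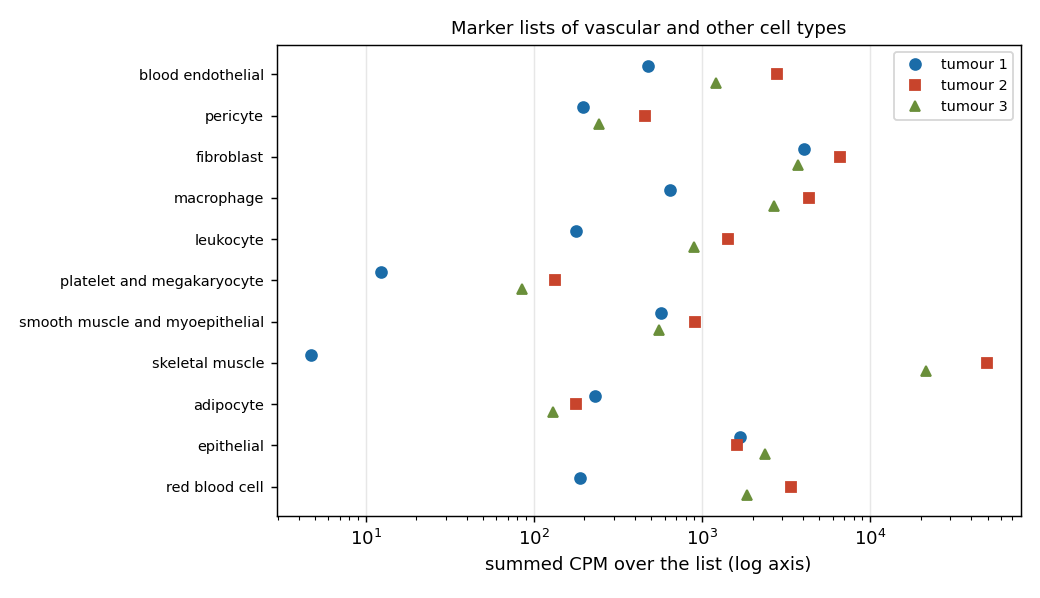
Summed CPM (log axis) of the blood endothelial and pericyte members and of marker lists of other cell types in tumours 1, 2 and 3. Blood endothelial, macrophage, leukocyte, platelet, skeletal muscle and red blood cell lists are all lowest in tumour 1 and highest in tumour 2, whereas the fibroblast, smooth muscle and myoepithelial, adipocyte and epithelial lists have other orders.

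A wide spread between tumours was not more frequent among the members than among all genes. A gap of 4-fold or more between the highest and the lowest tumour occurred for 12 of 40 members (30%), against 36.2% of all genes. Of those 12, 9 were blood endothelial genes, and the others were Vegfc, Angpt2 and Nrp1. Without tumour 1 no member had such a gap, and without tumour 2 there were 6.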

How the data were processed

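RNA-seq libraries of 3 tumours (Illumina TruSeq mRNA kit, paired reads of 50 bases, per the labels' protocols) were used as deposited: per the file headers the authors' values are estimated counts per gene symbol from Salmon, with no depth or length scaling. STAR, SAMtools, Picard and build mm10 are named, per the submitters' processing notes. Tool versions, annotation release and strand use: not given in the sources used here. Counts were rounded. Libraries were scaled with TMM (edgeR 4.0.16, R 4.3.3) over 12710 genes kept by filterByExpr, with factors of 1.48, 0.722 and 0.936. Genes with a mean of at least 1 CPM (14087) formed the background, and 40 of 42 members were among them. Log2 CPM used a prior count of 2. The chi-square test was Benjamini-Hochberg adjusted at 0.05 over these genes. It was also run on simulated data that held counting noise and planted changes only. That run cannot show how the test behaves with other variation in these libraries. Poisson and Clopper-Pearson 95% intervals cover counting error only, since the reads carry no molecular identifiers, and a count of 0 allows up to 3 counts.

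Lengths, GC contents and positions came from GENCODE M21 (GRCm38, the assembly also called mm10), matched for 97% of the background, and promoters from RefSeq (GRCm38.p6). Named genes were all members and, from the other lists, only genes among the 3 of highest mean CPM and the gene of widest range, unless marked as chosen after their values were seen. Not every such gene of the other lists is printed. Members, lists and tests were chosen with earlier results of these data known. With 1 group no conditions were compared. The alternatives were DESeq2 1.42.0 size factors, library totals, other filters, prior counts and thresholds, trend removal, and each tumour left out.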

Additional observations from a re-analysis of the deposited data

How the results depend on the processing

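Most values kept their direction. With library totals alone, 6 members lay at least 2-fold below in tumour 1, 3 lay above in tumour 2 and 6 were at least 4-fold apart. Above in tumour 1 were 5, Aplnr, Kcnj8, Vegfa, Vegfc and Angpt1, and below in tumour 2 were 2, Vegfc and Angpt1. The pericyte median difference was then 0.34 in tumour 1 and 0.050 in tumour 2, and the ligand one 1.25 and −0.79. DESeq2 size factors turned the ligand difference of tumour 2 to 0.013. At 4-fold, 6 members lay below in tumour 1 and 0 above in tumour 2, and at 8-fold 4 were apart. Without division by length, levels were 4.90 (blood endothelial), 1.92 (lymphatic), 5.29 (pericyte) and 4.40 (ligand), and pericyte minus blood endothelial was 0.39. As a mean over members, chosen after seeing the data, the lymphatic level was −0.46.

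With each tumour left out in turn, members below in tumour 1 numbered 12 to 23, above in tumour 2 14 to 23, 4-fold apart 0 to 12, highest in tumour 2 32 to 34, and called by the chi-square test 32 to 35. A tumour is then compared with 1 other only, so the 2-fold rule is easier to meet than in the main counts. The 23 below in tumour 1 and the 23 above in tumour 2 are the same comparison, without tumour 3. So are the blood endothelial differences of −1.82 and 1.82 given next. Levels were 2.72 to 3.12 (blood endothelial), −0.27 to −0.05 (lymphatic), 2.18 to 2.30 (pericyte) and 2.29 to 3.21 (ligand). Differences of tumours 1, 2 and 3 were −1.82 to −0.62, 0.995 to 1.82 and −0.995 to 0.62 for blood endothelium, −0.84 to −0.21, 0.55 to 0.84 and −0.55 to 0.21 for pericytes, and 0.317 to 0.325, −0.32 to 0.088 and −0.32 to −0.09 for ligands. Against blood endothelium, pericytes were at −0.83 to −0.54, lymphatic genes at −3.39 to −2.77 and ligands at −0.83 to 0.19. The cause of these shifts was not tested. With a total count of at least 15 as the filter, members at least 2-fold below in tumour 3 went from 1 to 2. Other filters and prior counts changed no other count of members by over 1.5 times. Removing the trend on GC content and length moved members above in tumour 1 from 1 to 2 and members below in tumour 3 from 1 to 0. It changed no other count by over 1.5 times, but moved the pericyte difference of tumour 2 to 0.31, against 0.75 before. Depth limits Prox1, Sele, Stab2, Lyve1 and, in tumour 2, Angpt1 and Vegfc. No paired analysis was possible because all tumours are in 1 group.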

Other observations

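Genes of endothelial Notch and ephrin signalling, chosen after their values were seen, did not share 1 order. The Notch ligand gene Dll4 reached 16.4 CPM in tumour 2, against 7.18 and 5.02 CPM in tumours 1 and 3, and the receptor gene Notch4 at 34.0 against 16.8 and 18.1 CPM. The Notch target gene Hey1 measured 20.8 CPM in tumour 1, against 10.8 and 8.07 CPM in tumours 2 and 3, and the ephrin gene Efnb2, which epithelial cells also express, at 24.2 against 3.48 and 3.56 CPM. The inhibitor gene Thbs1 stood at 166 CPM in tumour 1, against 26.2 and 34.1 CPM. The lymphatic and sinusoidal scavenger receptor gene Stab2 had 9, 4 and 6 counts, or 0.130, 0.497 and 0.381 CPM, in tumours 1, 2 and 3. Its intervals of 0.0595 to 0.247, 0.135 to 1.27 and 0.140 to 0.830 overlapped. Stab1, which macrophages share with such endothelium, reached 458 CPM in tumour 2, against 55.8 and 217 CPM.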
